A study of Mus musculus with 4 samples.

Results

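The 10 genes described here mark the endothelium, the cell layer that lines blood vessels and lymphatic vessels. They were taken by name from 55203 genes in bulk RNA-seq of mouse intestine. Of these, 6 are shared by blood and lymphatic endothelium or belong to blood vessels (Pecam1, Cdh5, Kdr, Tek, Plvap and Vwf, called pan-endothelial below), and 4 mark lymphatic vessels (Prox1, Lyve1, Flt4 and Pdpn). All 10 were found in every library, with 38 transcripts between them.

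Tissue came from wild-type adult male C57BL/6NTac mice, 8 to 12 weeks old and held free of specific pathogens. Of the 4 libraries, 2 carried the label 4 mM RVC (ribonucleoside vanadyl complex, an inhibitor of ribonucleases) and 2 were labelled fresh frozen; no transgene or other agent was named. The same protocol text, with an RVC rinse, is attached to all 4 libraries, and the label alone sets the frozen tissue apart. A different batch number stands on each library; batch therefore cannot be told apart from group, and a within-batch value could not be had. The labels do not say whether the 2 libraries of a group came from separate animals, so p-values measure only the spread between these libraries, which may be technical.

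The labels name ileum, whereas the protocol and design texts name distal colon. Genes of the colon were high (Car1 at 1587 to 1787 and Hoxb13 at 99.3 to 133 scaled FPKM), while of 9 ileal genes 5, among them Fgf15 and Apoa4, were listed at 0 in all 4 libraries. The others were Lct at or below 0.0247, Fabp6 at 2.71 to 3.91, Slc10a2 at 2.34 to 3.07 and Apob at 16.7 to 30.2. FPKM counts fragments per kilobase of transcript and relative to all mapped fragments, so levels can be compared between genes of different length. The number of sequenced fragments is unknown, and relative depth lay between 72.6% and 100% of the deepest library. A gene level is the sum over its transcripts, divided by a library factor between 0.992 and 1.01.

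Endothelial cells are held together by junctions built on Cdh5 (VE-cadherin) and Pecam1, and their growth is directed by 2 families of receptor tyrosine kinases. The receptor Kdr answers VEGF-A in blood vessels, Flt4 answers VEGF-C in lymphatic vessels, and Tek (Tie2) answers the angiopoietins. Prox1 is the transcription factor that sets lymphatic identity. In the gut, lymphatic vessels take up absorbed lipid and interstitial fluid and carry leukocytes to the mesenteric nodes.

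Levels of 9 of the 10 genes were higher in both RVC libraries than in both fresh-frozen libraries, and the fourth lymphatic gene, Prox1, overlapped between the groups. None of the 9 genes that could be tested passed an adjusted p of 0.05 (limma on log2(scaled FPKM + 1), two-sided, Benjamini-Hochberg over 13771 genes), and 7 had an unadjusted p under 0.05. In the same fit, 5 of all genes passed the adjusted threshold (0.0363%), 9.38% had an unadjusted p under 0.05 and were higher in RVC, 26.5% lay higher in both RVC libraries and 26.6% lower in both. The 5 genes past the threshold, named after their values were seen, were Slc10a7, Gm15725, 4930506C21Rik, Gm20257 and Gm3787, none of them on a gene list used here. In whole tissue, more cells of a type and more RNA per cell cannot be told apart.

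**Figure D1:**
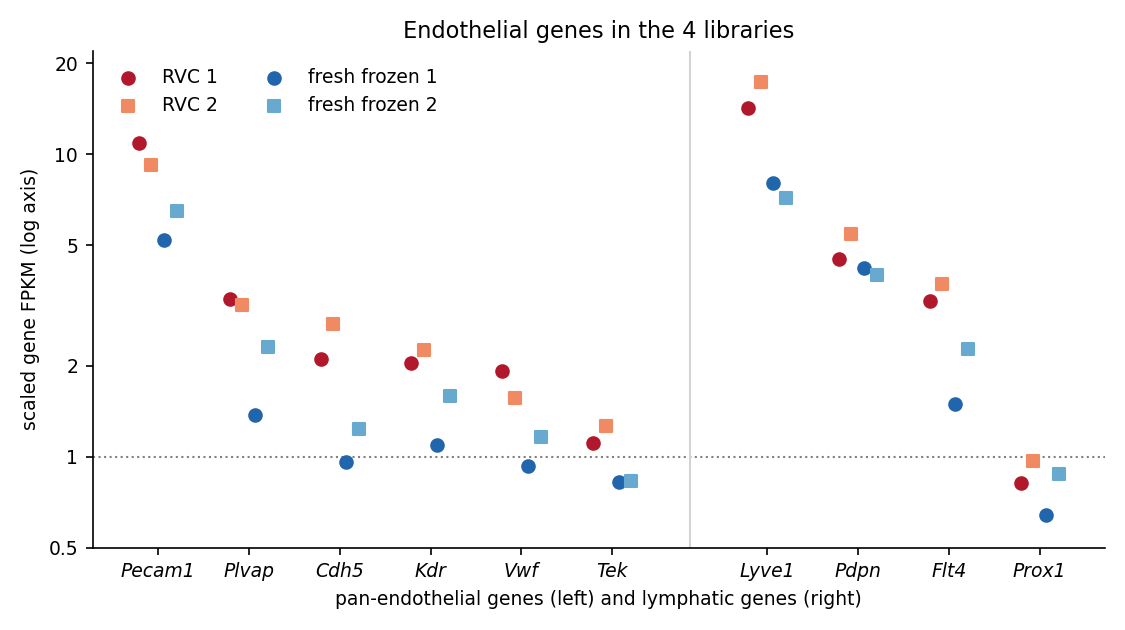
Scaled FPKM of each gene (log axis) in the 4 libraries; circles are sample 1 and squares sample 2 of each group, reds are RVC and blues fresh frozen, and the dotted line is the test minimum of 1. Both reds lie above both blues for every gene except Prox1, where they overlap.

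Pecam1 (CD31, chromosome 11, 106545043 to 106641454 in GRCm39), an adhesion molecule of endothelial junctions that platelets and leukocytes also carry, was the highest pan-endothelial gene. Its level was 10.9 scaled FPKM in RVC 1 and 9.21 in RVC 2, against 5.20 in the first frozen library and 6.51 in the second. The RVC mean was 1.72 times the fresh-frozen mean, and the log2 difference was 0.69 (SE 0.15, limma adjusted p = 0.129). The lower RVC library stood clear of the higher frozen one, but the difference missed the threshold.

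Cdh5 (chromosome 8, 104828257 to 104871143), the cadherin of endothelial adherens junctions, measured 2.11 and 2.74 scaled FPKM in the RVC libraries against 0.960 and 1.24 in the fresh-frozen ones. That was the widest ratio of group means among the 10 genes, 2.21, with a log2 difference of 0.71 (SE 0.17, limma adjusted p = 0.136). The log2 scale with a pseudocount of 1 understates changes of genes this low.

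Kdr (VEGFR2, chromosome 5, 76093487 to 76139118) measured 2.05 and 2.25 scaled FPKM in RVC against 1.09 and 1.58 in fresh frozen. The groups did not overlap, and the log2 difference was 0.44 (SE 0.17, limma adjusted p = 0.237). Tek (chromosome 4, 94627526 to 94763213) measured 1.11 and 1.27 scaled FPKM in RVC against 0.823 and 0.832 in fresh frozen, with a log2 difference of 0.26 (SE 0.15). Tek reached the test minimum, a mean of 1, only through the RVC libraries, so its difference is a description.

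Plvap (chromosome 8, 71950409 to 71964396) forms the diaphragms of fenestrated capillaries, which are common in the gut mucosa. Its level was 3.33 and 3.18 scaled FPKM in RVC against 1.38 and 2.30 in fresh frozen, a log2 difference of 0.60 (SE 0.18, limma adjusted p = 0.179). Vwf (chromosome 6, 125523737 to 125663642), the clotting protein stored in Weibel-Palade bodies, measured 1.92 and 1.56 scaled FPKM in RVC against 0.931 and 1.17 in fresh frozen, a log2 difference of 0.42 (SE 0.16, limma adjusted p = 0.242). Both genes were lowest in fresh frozen 1. Without that library, the log2 difference of Plvap was 0.37 and that of Kdr 0.28, each smaller by more than 1.5 times.

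Platelets also hold Pecam1 and Vwf. Of 7 platelet genes, Gp9, Gp5 and Treml1 lay between 0 and 0.0758 scaled FPKM in all libraries. Ppbp lay at 0.0819 to 0.444, Itga2b at 0.375 to 0.682 and Gp1bb at 0.765 to 0.944, all overlapping between the groups, and only Pf4 was higher in both RVC libraries (13.2 and 10.9 against 7.34 and 7.09). Their part in the Pecam1 and Vwf levels was not tested.

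Prox1 (chromosome 1, 189850232 to 189902911) was the lowest of the 10 genes, at 0.819 and 0.970 scaled FPKM in RVC against 0.640 and 0.874 in fresh frozen. The groups overlapped, and its mean of 0.826 fell below the test minimum. Fitted without that minimum, the log2 difference was 0.11 (limma adjusted p = 0.776). Enteroendocrine cells also carry Prox1, and 7 of 8 genes of that cell type were lower in both RVC libraries. Their summed level was 255 and 213 scaled FPKM in RVC against 268 and 343 in fresh frozen. Their part in the Prox1 level was not tested.

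Flt4 (VEGFR3, chromosome 11, 49500090 to 49543566), the receptor for VEGF-C and VEGF-D, measured 3.29 and 3.73 scaled FPKM in RVC against 1.49 and 2.27 in fresh frozen. The RVC mean was 1.87 times the fresh-frozen mean, and the log2 difference was 0.66 (SE 0.17, limma adjusted p = 0.151). Like Prox1 and all 6 pan-endothelial genes, Flt4 was lowest in fresh frozen 1. That library also had the lowest relative depth, 72.6%, and the part of depth was not tested.

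The receptors Kdr and Tek are shown with the 250 bases that RefSeq places before their transcription start. The sequences are from the RefSeq table of GRCm38.p6, which held windows for 5 of the 10 genes, and each was found once on its chromosome in GRCm39. They are printed 5′ to 3′ on the strand of the gene. Capitals mark the GC box GGGCGG and the ETS core GGAA on either strand (a reverse match reads CCGCCC or TTCC).
Kdr (chr5:76139116-76139365, minus strand): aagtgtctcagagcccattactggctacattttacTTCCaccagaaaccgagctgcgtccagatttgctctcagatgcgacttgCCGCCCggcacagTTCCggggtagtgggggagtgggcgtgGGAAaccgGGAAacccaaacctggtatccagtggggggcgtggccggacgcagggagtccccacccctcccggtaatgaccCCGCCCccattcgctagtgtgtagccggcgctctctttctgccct
Tek (chr4:94627276-94627525, plus strand): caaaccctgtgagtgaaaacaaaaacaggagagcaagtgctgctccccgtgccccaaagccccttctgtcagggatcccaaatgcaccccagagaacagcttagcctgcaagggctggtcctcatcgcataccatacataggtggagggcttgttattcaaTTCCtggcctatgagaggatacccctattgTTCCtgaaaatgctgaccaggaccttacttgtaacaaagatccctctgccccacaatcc

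The Kdr window held 61.6% GC and the Tek window 51.2%, and the median over all windows of the table was 52.4%. Kdr held 2 GC boxes and Tek none; 32.7% of the 32851 windows in the table hold at least 1. The ETS core occurred 4 times in the Kdr window and 2 times in the Tek window, but 93.4% of all windows hold it. Neither window held TATAAA on either strand, which 12.4% of windows do. The Tek window ended directly before the first deposited transcript start, and the Kdr window ran 3 bases past it. The RefSeq window of Flt4 began 166 bases past the deposited Flt4 start, inside the gene, and is not shown. These letters are a description of the windows, and no measurement here bears on binding.

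Lyve1 (chromosome 7, 110449814 to 110462446), a hyaluronan receptor of lymphatic capillaries, had the highest level of the 10 genes and the largest difference on the log2(scaled FPKM + 1) scale. With a pseudocount of 0.1, Cdh5 had the larger one, 1.08 against 1.03. It measured 14.2 and 17.3 scaled FPKM in the RVC libraries against 8.03 and 7.19 in the fresh-frozen ones. The log2 difference was 0.96 (SE 0.14, limma adjusted p = 0.105), and the RVC mean was 2.07 times the fresh-frozen mean. This gene sum includes a retained-intron transcript whose estimate differed far more than that of the coding transcript.

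Lyve1 divided between 2 transcripts. The coding transcript ENSMUST00000033050 (2893 nt) was estimated at 9.47 and 13.8 FPKM in RVC and at 7.97 and 7.14 in fresh frozen, a log2 difference of 0.54 (limma adjusted p = 0.299). The retained-intron transcript ENSMUST00000209319 (802 nt) was estimated at 4.67 (file bounds 3.28 to 6.07) and 3.52 (2.25 to 4.79) FPKM in RVC. In fresh frozen it stood at 0.171 (0 to 0.485) and 0.000333 (0 to 0.0936). It reached a mean of 1 FPKM only through the RVC libraries, so its log2 difference of 2.22 is given as a description. Of the Lyve1 gene sum it made up 33.0% and 20.3% in RVC, and 2.1% and 0.00467% in fresh frozen.

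**Figure D2:**
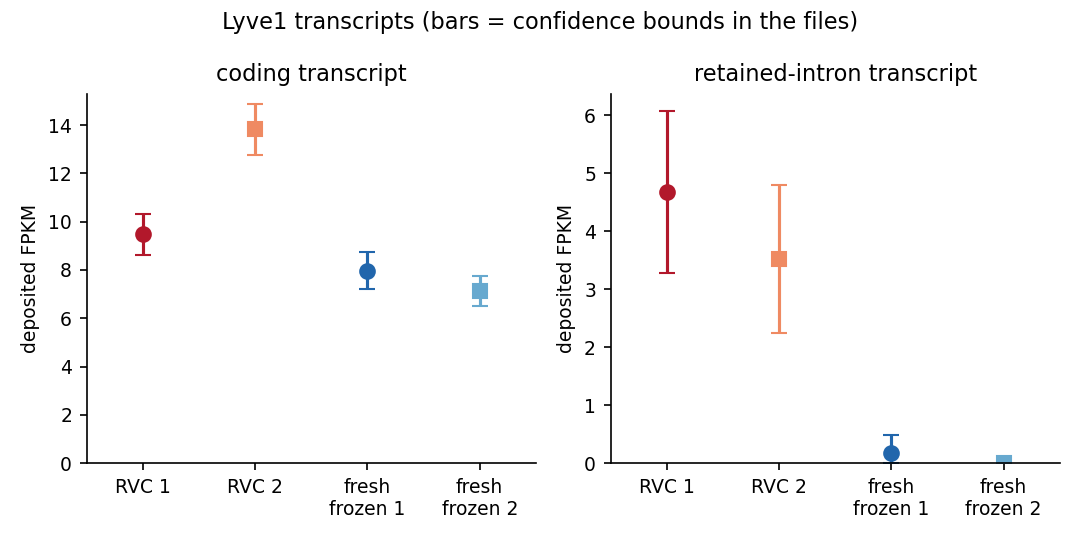
Deposited FPKM of the 2 Lyve1 transcripts in the 4 libraries, with the confidence bounds given in the files. The retained-intron transcript is at 3.52 and 4.67 in RVC and at or below 0.171 in fresh frozen, and the coding transcript is at 9.47 and 13.8 against 7.97 and 7.14.

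The retained-intron form, much shorter than the coding transcript, is shown against the spliced form because it has few bases of its own. In the GENCODE vM39 annotation it has 4 exons, lies inside the coding transcript, and only its last 26 bases fall outside the exons of the coding transcript. Those bases are the first of a 789-base intron after exon 4 of 6 (chr7:110452878-110452903, GRCm39, minus strand). Both sequences below are read 5′ to 3′ on the minus strand from GRCm39 and open with the last 30 bases of exon 4 in lower case. Capitals mark what follows: the 26 intron bases in the first, beginning with the GT of the splice site, and the first 30 bases of exon 5 in the second.
Lyve1 retained: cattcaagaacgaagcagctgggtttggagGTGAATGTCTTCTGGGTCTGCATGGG
Lyve1 spliced: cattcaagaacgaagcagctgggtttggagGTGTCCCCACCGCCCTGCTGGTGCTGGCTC
Cufflinks divides reads between such forms by likelihood, and most bases of the retained form are shared. The division between the 2 estimates was not tested against reads that cross this junction.

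A subset of tissue macrophages also carries Lyve1. Of 11 macrophage genes, 7 were higher in both RVC libraries, and their summed level was 126 and 128 scaled FPKM in RVC against 94.1 and 85.4 in fresh frozen. Lyz2 and C1qa, the highest of them, had log2 differences of 0.47 and 0.67. Mrc1 and Cd163, which mark resident macrophages of that kind, overlapped between the groups with log2 differences of -0.12 and 0.14, and so did Timd4, at 0.178 to 0.419 scaled FPKM. Folr2, another such marker, was higher in both RVC libraries, at 3.89 and 3.88 scaled FPKM against 2.72 and 2.065 in fresh frozen (log2 difference 0.53). Their part in the Lyve1 difference was not tested.

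Pdpn (podoplanin, chromosome 4, 142994001 to 143026134), a membrane glycoprotein of lymphatic endothelium that stromal fibroblasts and mesothelium also make, measured 4.52 and 5.45 scaled FPKM in RVC against 4.19 and 3.98 in fresh frozen. The groups were narrowly apart, and the log2 difference of 0.23 was the smallest among the 9 tested genes (SE 0.14, limma adjusted p = 0.393). Without RVC 2 it was 0.12. The 11 fibroblast genes had a median log2 difference of 0.23, with 3 higher in both RVC libraries and 8 overlapping, and none of 7 mesothelial genes was higher in both RVC libraries.

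Ranked by the mean of the 4 libraries, the order ran from Lyve1 (11.7 scaled FPKM) through Pecam1 (7.96), Pdpn (4.54), Flt4 (2.70), Plvap (2.55), Cdh5 (1.76), Kdr (1.74), Vwf (1.39) and Tek (1.01) to Prox1 (0.826). Among neighbours in this ranking, only Pdpn and Flt4 had ranges over the 4 libraries that did not overlap: Pdpn was never below 3.98, and Flt4 never above 3.73. Within a library, the higher of each neighbouring pair was higher in all 4, except Flt4 over Plvap and Cdh5 over Kdr, which held in 2 of 4 each, and Tek over Prox1, in 3 of 4. Lymphatic genes thus held both the top and the bottom of the ranking. The ranking uses gene sums, and the Lyve1 coding transcript alone, at 9.47 FPKM in RVC 1, lay below Pecam1 there (10.9 scaled FPKM).

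The 2 sets were then set against each other within each library. The 6 pan-endothelial genes summed to 21.4 and 20.2 scaled FPKM in RVC and to 10.4 and 13.6 in fresh frozen, a mean of 20.8 ± 0.867 (SD, n = 2) against 12.0 ± 2.30 (SD, n = 2). The 4 lymphatic genes summed to 22.8 and 27.5 in RVC and to 14.4 and 14.3 in fresh frozen, a mean of 25.2 ± 3.29 (SD, n = 2) against 14.3 ± 0.0312 (SD, n = 2). The 2 sums were thus 1.73 and 1.75 times higher in RVC, and neither overlapped between the groups.

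The lymphatic share of the 10-gene sum was 51.6% and 57.6% in RVC, and 58.0% and 51.2% in fresh frozen. The means were 54.6% ± 4.28 (SD, n = 2) and 54.6% ± 4.81 (SD, n = 2), and the groups overlapped throughout. Lyve1 carried much of the lymphatic sum, 62.6% ± 0.596 (SD, n = 2) in RVC and 53.1% ± 4.02 (SD, n = 2) in the other group. The retained-intron estimate was 33.0% and 20.3% of the Lyve1 sum in RVC, and 2.1% and 0.00467% in fresh frozen. What Lyve1 carried without that estimate was not computed. With Lyve1 left out, the share was 28.7% and 33.5% in RVC against 37.9% and 34.3% in fresh frozen, so the RVC libraries were then the lower ones. No test of the shares was run. With 2 libraries against 2, the smallest two-sided p of an exact permutation test is 2 of 6 arrangements.

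**Figure D3:**
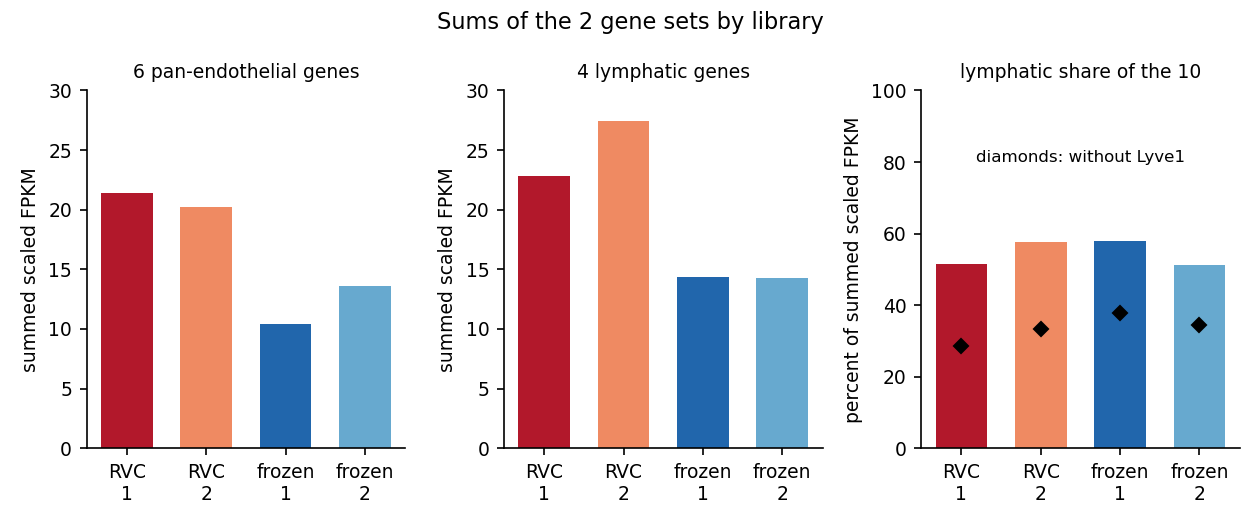
Summed scaled FPKM of the 6 pan-endothelial genes and of the 4 lymphatic genes, and the lymphatic percentage of their total, by library; diamonds give the percentage without Lyve1. Both sums are higher in both RVC libraries, while the share lies between 51.2% and 58.0% in all 4.

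Ratios between single genes were not the same in the 4 libraries. Lyve1 stood at 17.3 and 17.8 times Prox1 in the RVC libraries against 12.6 and 8.23 times in the fresh-frozen ones. The Lyve1 sum includes the retained-intron estimate, 4.67 and 3.52 FPKM in RVC against 0.171 and 0.000333 in fresh frozen. A ratio from the Lyve1 coding transcript alone was not computed. Pdpn was 0.415 and 0.592 of Pecam1 in RVC against 0.807 and 0.611 in fresh frozen. Flt4 per Kdr, the lymphatic against the blood VEGF receptor, was 1.60 and 1.66 in RVC and 1.36 and 1.43 in fresh frozen. Flt4 per Pecam1 overlapped between the groups, at 0.3011 and 0.4057 in RVC against 0.2869 and 0.3482 in fresh frozen. Lyve1 per Pecam1 also overlapped, at 1.301 and 1.881 against 1.544 and 1.104. Prox1 per Pecam1 was lower in both RVC libraries. Cdh5 per Pecam1 was 0.194 and 0.298 in RVC and 0.185 and 0.190 in fresh frozen. Vwf held 0.170 to 0.179 of Pecam1 in all 4 libraries, with RVC narrowly lower, and Plvap, Kdr and Tek per Pecam1 overlapped between the groups.

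Over all 6 pan-endothelial genes the median log2 difference was 0.52, with or without a minimum on level, and over all 4 lymphatic genes, Prox1 included and with no minimum on level, it was 0.44. Over the 3 lymphatic genes that passed the minimum it was 0.66. The median over all genes tested was 0.0066. No gene of either set passed the adjusted threshold, and the difference between the sets was not tested.

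**Figure D4:**
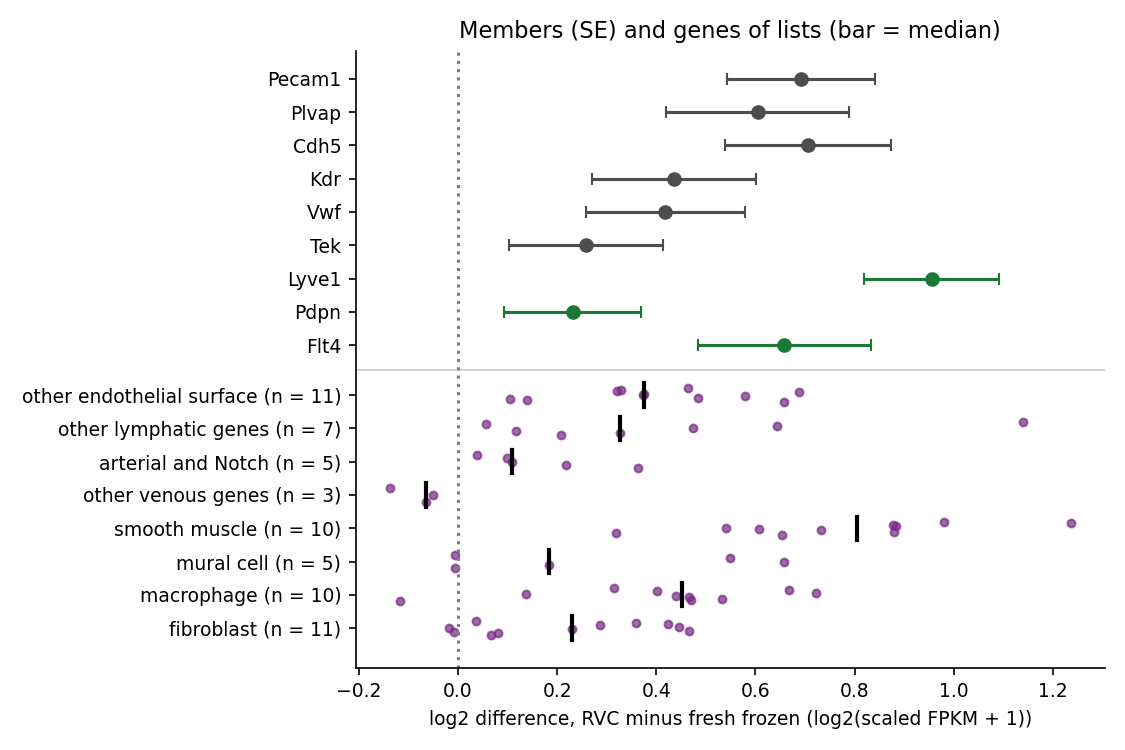
Log2 difference, RVC minus fresh frozen, on the log2(scaled FPKM + 1) scale: the 9 tested members with their standard error (grey pan-endothelial, green lymphatic), and below them the tested genes of 8 lists without the members, with a bar at the median. Lyve1 lies farthest right of the members at 0.96, and the 3 tested venous genes lie between -0.14 and -0.05.

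The ligands of the VEGF receptors gave mixed values. Vegfa, the ligand of Kdr, overlapped between the groups at 29.4 and 21.6 scaled FPKM in RVC against 21.2 and 23.2 in fresh frozen. Vegfc, the ligand of Flt4, overlapped at 1.22 and 0.894 against 0.819 and 0.949, and Vegfd was lower in both RVC libraries at 0.559 and 0.533 against 0.825 and 0.640. Vegfb, a ligand of Flt1, was apart and higher, at 3.80 and 3.65 against 2.86 and 3.22 (limma adjusted p = 0.388).

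The other VEGF receptors and co-receptors gave both patterns. Flt1 (VEGFR1) was low, at 0.663 and 0.602 scaled FPKM in RVC against 0.349 and 0.424 in fresh frozen, and its ligand Pgf lay between 0.113 and 0.343 in the 4 libraries with RVC higher. The co-receptors Nrp1 and Nrp2 overlapped, with log2 differences of 0.16 and 0.12.

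Around Tek, the partner receptor Tie1 measured 1.37 and 1.68 scaled FPKM in RVC against 0.666 and 0.810 in fresh frozen (log2 difference 0.54). The endothelial phosphatase Ptprb, which acts on Tek, measured 1.80 and 2.11 against 0.955 and 0.921 (log2 difference 0.61). Tie1 and Ptprb, like Tek, reached the test minimum only through RVC. The angiopoietins were near the floor of the data: Angpt1 and Angpt2 overlapped between 0.251 and 0.375, and Angpt4 stayed at or below 0.0684. Svep1, a matrix protein of lymphatic development, overlapped.

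The 10 lists of vascular genes, without the members, held 87 genes found in the files, 50 of them above the test minimum. None of the 50 passed the adjusted threshold in limma, 16 were higher and 1 was lower at an unadjusted p under 0.05. Both RVC libraries lay above both frozen ones for 27 genes and below them for 3, and 20 overlapped. Their median log2 difference was 0.25, and some of them reached the minimum only through RVC. Over all 87 genes, 48 were higher in both RVC libraries, 5 were lower and 34 overlapped. Beside these counts and those of the single lists below, 26.5% of all 13771 genes tested were higher and 26.6% lower. Such a share over genes below the test minimum was not computed, so whether 48 of 87 is unusual cannot be said.

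Among endothelial surface and junction genes, 9 of 11 were higher in both RVC libraries, with a median log2 difference of 0.37. Cd34 had a log2 difference of 0.32, Mcam 0.66 and Egfl7 0.37. Of the transcription factors, Klf2, which responds to flow, stood at 0.53 and Ets1 at 0.34, whereas Nr2f2 (COUP-TFII), a factor of venous identity, stood at -0.05 with RVC slightly lower.

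Of the 11 arterial and Notch genes found, 7 were higher in both RVC libraries and 4 overlapped. The 5 above the test minimum had a median log2 difference of 0.11, with Efnb2 at 0.10, Unc5b at 0.36 and Notch1 at 0.11. The arterial connexins, named after their values were seen, were below the minimum: Gja4 measured 0.531 and 0.637 scaled FPKM in RVC against 0.131 and 0.294, and Gja5 0.443 and 0.474 against 0.243 and 0.233. Of the 9 venous genes other than Vwf, 2 were higher in both RVC libraries, 1 was lower and 6 overlapped. The 3 above the minimum had a median of -0.07, with Ephb4 at -0.14 and Vcam1 at -0.07. Epithelial and stromal cells of the gut also make several of these genes, and the difference between these lists and the members was not tested.

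Of the genes of fenestrated and lipid-handling capillaries, the water channel Aqp1 stood at 0.46 and was higher in both RVC libraries. The fatty acid carrier Fabp4 stood at 0.28 but overlapped, at 5.26 and 5.93 scaled FPKM in RVC against 5.68 and 3.43 in fresh frozen. Cd36, a fatty acid transporter, went the other way, at 3.34 and 4.13 scaled FPKM in RVC against 5.53 and 4.62 in fresh frozen (log2 difference -0.36, limma adjusted p = 0.268). The genes of the Weibel-Palade bodies that hold Vwf had a median of 0.18 over 5 tested genes other than Vwf. Of these, 3 were higher in both RVC libraries and 2 overlapped. The largest difference was that of Edn1, 0.88, named after its values were seen. The highest in level were Vamp8, Rab27a and Mlph, secretory genes that the gut epithelium also expresses.

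Among the other lymphatic genes, Ccl21a had the highest level and the largest difference. This chemokine draws dendritic cells and T cells into lymphatic vessels, and stromal cells of lymphoid tissue make it too. It measured 63.9 and 81.9 scaled FPKM in RVC against 31.2 and 33.4 in fresh frozen, a log2 difference of 1.14 (limma adjusted p = 0.0743). The copies Ccl21b, Ccl21d, Gm13304 and Gm10591, each lay between 17.1 and 21.8 in RVC and between 8.41 and 9.06 in fresh frozen. Near-identical copies share reads, so the division between them is uncertain.

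Of 7 tested genes of lymphatic development and function, Ccl21a included and the members left out, 4 were higher in both RVC libraries and 3 overlapped. Their median log2 difference was 0.33. The remaining lymphatic genes with a high level had smaller differences than Ccl21a. Mmrn1, a matrix protein of lymphatic endothelium, overlapped at 9.28 and 14.9 scaled FPKM in RVC against 7.18 and 9.38 in fresh frozen (log2 difference 0.47). Fgl2 overlapped with a log2 difference of 0.06. Of the genes for leukocyte exit through lymphatics, Sphk2, a kinase that makes sphingosine-1-phosphate, stood at 0.28, and Ackr4, a scavenger of Ccl21, overlapped at -0.04.

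Levels were also estimated for single transcripts, and the division of reads between forms of a gene was not tested. Of the 38 member transcripts, 10 from 7 genes passed the filters, and 9 of these 10 were higher in both RVC libraries. For all transcripts tested that share was 25.4%, for protein-coding ones 26.3% and for retained-intron ones 26.7%. None of the 10 passed the adjusted threshold in limma, with adjusted p between 0.123 and 0.695. The lowest belonged to the Lyve1 retained-intron transcript, which passed the filter only through RVC. Over all 24080 transcripts 1 passed (0.00415%), a transcript of Calm2, named after its value was seen. In Cdh5, Flt4, Kdr and Plvap the file's confidence bounds of the leading transcript did not overlap between the RVC and the fresh-frozen libraries, with RVC higher. The share of all transcripts with bounds apart was not computed, so whether this is unusual cannot be said.

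Pecam1 spread over several coding transcripts. The highest on average, ENSMUST00000080853 (3283 nt), overlapped between the groups at 2.08 and 3.22 FPKM in RVC against 2.25 and 2.12 in fresh frozen. A near neighbour of 3233 nt, ENSMUST00000103069, was at 3.72 and 2.55 FPKM in RVC and at 1.17 and 1.90 in fresh frozen (log2 difference 0.70, limma adjusted p = 0.294). The limma adjusted p of 0.129 for the gene sum came from the separate fit over genes and cannot be ranked against those of single forms. Cufflinks divides reads between such near-identical forms. A shorter coding form of 1020 nt, ENSMUST00000124958, named after its values were seen, was higher in both RVC libraries, with file bounds that overlapped. It was at 1.27 and 1.51 FPKM in RVC against 0.0013 and 0.436 in fresh frozen.

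The division of Tek between transcripts also differed. Its leading transcript ENSMUST00000102798 was at 0.346 FPKM in RVC 1 and 1.02 in RVC 2, against 0.834 and 0.826 in fresh frozen, and so overlapped. It held 31.2% and 80.7% of the gene sum in RVC, and 100% and 99.95% in fresh frozen. A second coding transcript, ENSMUST00000071168, named after its values were seen, was at 0.510 and 0.193 FPKM in RVC and at or below 0.000376 in fresh frozen, with file bounds that did not overlap between the groups. Prox1 (ENSMUST00000175916) was at 0.661 and 0.682 FPKM against 0.648 and 0.801. Vwf (ENSMUST00000112254) was at 0.772 and 0.90 FPKM against 0.596 and 0.621, and held between 40.4% and 63.1% of the Vwf sum.

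In Cdh5 and Plvap nearly the whole gene sum came from 1 coding transcript, ENSMUST00000034339 (88.6% to 100%) and ENSMUST00000048452 (100% in all 4 libraries). Flt4 (ENSMUST00000020617) held 94.2% to 99.0% of its sum in 1 transcript, Kdr (ENSMUST00000113516) 92.5% to 96.9%, and Pdpn (ENSMUST00000030317) 90.3% to 100%. For these genes the transcript and gene patterns were nearly the same measurement.

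Markers of other cell types were higher in RVC alongside the endothelial genes. All 10 smooth muscle genes were higher in both RVC libraries, with a median log2 difference of 0.81 and a summed level of 1143 and 1690 scaled FPKM against 695 and 759. The highest of them, Actg2 and Acta2, had log2 differences of 1.24 and 0.98. Of 8 plasma cell genes 7 were higher in both RVC libraries, summing to 1038 and 928 against 415 and 620. The mural cells that wrap small vessels gave a median of 0.18 over 5 tested genes, with Mcam counted here and among the surface genes. Their highest gene, Rgs5, overlapped at 18.7 and 18.4 against 16.6 and 20.9. The 10 epithelial genes had a median of 0.11, with 6 overlapping. The part of these cell types in the endothelial difference was not tested.

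Haemoglobin genes followed the sample number and not the group. Hbb-bs was at 147 and 41.8 scaled FPKM in RVC 1 and 2, and at 146 and 29.7 in fresh frozen 1 and 2. None of the 6 erythrocyte genes was apart between the groups, and their level was high in sample 1 of each group.

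**Figure D5:**
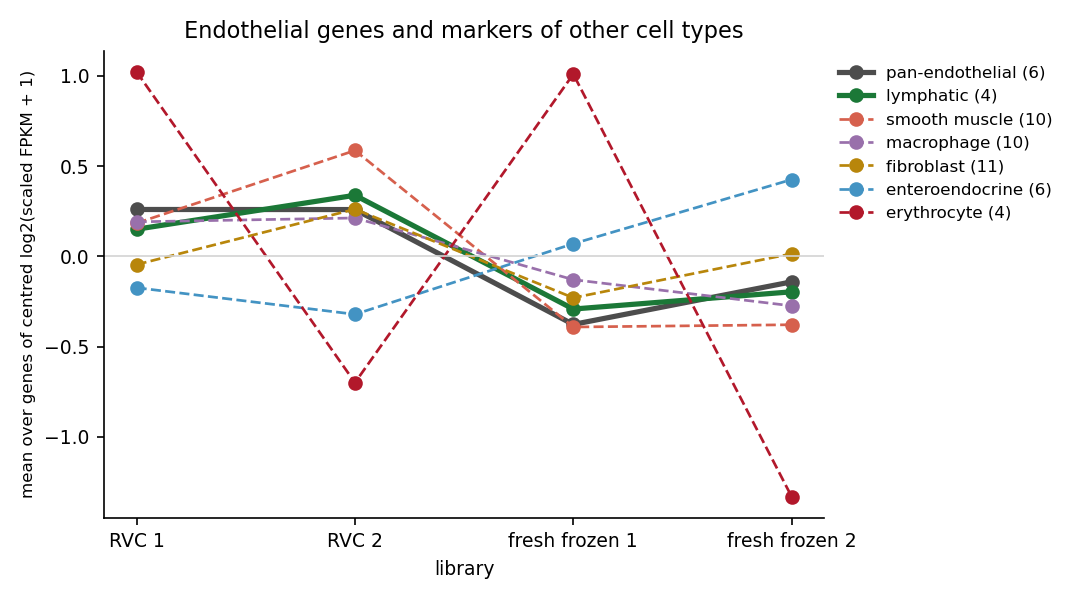
Mean of log2(scaled FPKM + 1), centred on the mean of each gene, by library, averaged over the members and over 5 lists of other cell types; numbers of genes are in brackets, and lines only join the values of 1 list. The endothelial and smooth muscle lines are high in both RVC libraries, the enteroendocrine line is low there, and the erythrocyte line is high in sample 1 of each group.

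The mean centred profile of the 6 pan-endothelial genes was 0.26 in both RVC libraries, -0.38 in fresh frozen 1 and -0.14 in fresh frozen 2. That of the 4 lymphatic genes was 0.15 and 0.34 in RVC 1 and 2, and -0.29 and -0.20 in fresh frozen 1 and 2. Its members did not share the order of the frozen libraries: Flt4 and Prox1 were lower in fresh frozen 1, and Lyve1 and Pdpn in fresh frozen 2. The smooth muscle profile was 0.18, 0.59, -0.39 and -0.38 in the same order of libraries.

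Among 7421 genes with a mean of at least 5 scaled FPKM, the 5 nearest to the pan-endothelial profile over the 4 libraries were Lrrc17, H3c13, Trpm4, H4c6 and Lama3. Their root mean square distance was 0.012 to 0.024 on the log2 scale. Those nearest to the profile of the 4 lymphatic genes were Atf6b, Mfap5, Csta1, Rcn3 and Svil, at 0.011 to 0.027. H3c13 and H4c6 are histone genes with near-identical copies, so their values are uncertain. A profile over 4 libraries rests on few points.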

How the data were processed

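Bulk RNA was depleted of ribosomal RNA and sequenced as 150-bp read pairs, per the labels' protocols. The authors aligned reads with TopHat2 2.1.1 to GRCm39 and estimated transcripts with Cufflinks 2.2.1, per the submitters' processing notes; annotation release and strand setting are not given in the sources used here. The deposited values are FPKM per transcript with confidence bounds. The deposited coverage signal, divided by FPKM, gave relative depth. No count model was applied to FPKM values.

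Gene FPKM was summed over transcripts, scaled by median ratio, and analysed as log2(scaled FPKM + 1). Genes or transcripts with a mean of at least 1, a length of at least 300 nt and status OK everywhere were tested with limma 3.58.1 in R 4.3.3 (trend, no covariate), at an adjusted p of 0.05. The members and lists were chosen with earlier results of these data known. Named were all members, all VEGF and angiopoietin genes, the 3 highest other genes of each vascular list, the 2 highest of other cell types, and the 5 nearest profiles with predicted genes passed over. For transcripts, the highest of each member was named, and any other averaging over 1 FPKM with group means at least 2-fold apart. Platelet, macrophage, colon and ileum genes outside this rule, the arterial connexins and the Ccl21 copies were chosen after their values were seen. The test was tested on simulated data. Figures used matplotlib 3.10.9 and tables pandas 2.3.3. Foxc2, Fdcsp and Si were not analysed here. Alternatives were other pseudocounts, scalings, filters, a block on sample number, no trend, and each library left out.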

Additional observations from a re-analysis of the deposited data

How the results depend on the processing

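Over 110 alternatives of the 9 tested members, Tek included although it reached the minimum only through RVC, the direction was the same in all 110. For these 9 genes both RVC libraries lay above both fresh-frozen ones, so most alternatives, such as leaving out a library, could not reverse it. Of the 110, 1 passed the threshold: Lyve1 with the replicate block, at a limma adjusted p of 0.0207, within a range of 0.0207 to 0.402 for that gene. Deviations of RVC 1 and fresh frozen 1 from their group means had a correlation of -0.134 over genes. With 2 libraries per group, this value cannot settle whether the sample numbers pair the libraries, and pairing was not tested. Genes past the threshold were 5 as reported and 112 with the replicate block (71 higher, 41 lower), 12 with the crossed pairing chosen after seeing the data, and 2 with a mean of at least 5 FPKM. They were 0 with no filter on low values, 0 without transcripts under 300 nt and 0 with no trend, where limma gave 3531, 2577 and 2461 at an unadjusted p under 0.05. Leaving out each library gave 14 to 30. Transcripts past the threshold were 1 as reported and 1 under either block, 6 with a mean of at least 5 FPKM, and 0 to 0 with each library left out, where 2103 to 2938 had an unadjusted p under 0.05 in limma.

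The pan-endothelial median of 0.52 was 0.73 with a pseudocount of 0.1, 0.69 with a mean of at least 5 FPKM (Pecam1 alone), and 0.35 without fresh frozen 1 to 0.69 without fresh frozen 2. The lymphatic median of 0.66 was 0.89 with that pseudocount, 0.44 with no filter, 0.96 for Lyve1 alone at a mean of at least 5, and 0.46 without fresh frozen 1 to 0.85 without fresh frozen 2. The lymphatic share was 63.5% in RVC and 63.9% in fresh frozen from the most abundant transcript of each gene. Apart from fewer genes or samples entering, the cause of these shifts was not tested. Depth is unknown, and confidence bounds in the files cover the estimate in 1 library only. Prox1, Tek and Vwf lie near the test minimum.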
